A study of Mus musculus with 4 samples.

Results

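The neurons described here are olfactory sensory neurons that had chosen Olfr31, 1 of the 960 odorant receptor genes found as the chosen receptor in these libraries. A barcode was taken as an Olfr31 neuron when it had 500 or more genes, at most 10% mitochondrial counts, at least 5 UMIs of Omp (the olfactory marker protein of mature sensory neurons), at most 15 UMIs of Cyp2g1 (a cytochrome P450 of sustentacular cells), and Olfr31 as its top receptor with at least 3 UMIs and 80% of all receptor UMIs, receptor pseudogenes not counted. A UMI is a molecular tag that lets each captured RNA molecule be counted once. The rule found 101 barcodes among 17891 assigned in the same way to any receptor, out of 41911 barcodes in all. The study, whose title concerns neurexins and the targeting of olfactory axons, made 4 single-cell libraries of the 5′ ends of transcripts. The tissue was the main olfactory epithelium, the strain C57BL/6J, the genotype wild type and the age 3 months. There were 2 female and 2 male libraries, and no agent, allele or transgene was named for any of them. The labels number them as replicates and do not say whether a library held 1 animal or several, so the p-values below measure the spread between these libraries.

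Each mature olfactory sensory neuron expresses 1 receptor gene from 1 allele, and the receptor both sets which odorants the cell answers and takes part in sending its axon to particular glomeruli in the olfactory bulb. Signals from the receptor run through a G protein, adenylyl cyclase 3 and a cyclic-nucleotide-gated channel. Receptor-dependent basal signalling and odor-driven activity are known to set the levels of axon sorting molecules, which include Kirrel2, Kirrel3 and protocadherins, and of activity-linked genes such as S100a5. Receptors are also expressed in zones of the epithelium, with Nqo1 and Acsm4 in the dorsal zone and Ncam2 in the ventral zones. Receptor transcripts were used to choose the cells, so all tests below leave out receptor genes and pseudogenes, mitochondrial genes, Omp and Cyp2g1.

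Olfr31 (ENSMUSG00000072707) lies on the plus strand of chromosome 14 from 14322828 to 14331791 in GRCm38, as annotated by GENCODE M21, and its coding sequence of 951 bases without the stop codon sits in 1 exon, from 14328113 to 14329063. The nearest receptor gene that is not a pseudogene is Olfr720, on the minus strand from 14171738 to 14186838, which is 135990 bases away. Olfr720 was also the closest of 1102 receptors in coding sequence, with 73.3% identity, where the median receptor had 55.7%. The first 90 coding bases of both genes are shown, and the 34 differing bases in each are in capitals. Whether the counts of these 5′ libraries rest on these bases was not tested.
Olfr31: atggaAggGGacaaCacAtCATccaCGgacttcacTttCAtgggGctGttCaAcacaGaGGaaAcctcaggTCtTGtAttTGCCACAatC
Olfr720: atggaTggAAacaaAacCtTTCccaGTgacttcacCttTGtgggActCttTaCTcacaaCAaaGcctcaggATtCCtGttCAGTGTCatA
Olfr720 was the chosen receptor of 94 barcodes. The annotated gene Gm48860 overlaps Olfr31 on the opposite strand, is not among the counted features, and could not be told apart from it if the counting ignored strand.

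The 101 neurons came as 30 and 33 from females 1 and 2 and as 18 and 20 from males 1 and 2. Olfr31 was the 16th most frequent receptor, against a median of 11 neurons per receptor and 320 for Olfr536, the most frequent. The cells were chosen by their Olfr31, Omp, Cyp2g1 and mitochondrial counts and their number of genes, so these values are given as a description. Olfr31 had 5 to 191 UMIs in a neuron with a median of 68, and took 89.3% to 100% of the receptor UMIs, pseudogenes left out, with a median of 98.0%. Relative to all UMIs of the cells it stood at 110, 94.7, 98.1 and 102 per 10000 in female 1, female 2, male 1 and male 2, where the chosen receptor of the other neurons stood at 94.6, 89.1, 93.6 and 88.2. A UMI of a second receptor was found in 72 of the 101 neurons, at most 2 UMIs of any one. Among receptor pseudogenes, 1 neuron had 83 UMIs of Olfr1532-ps1, another 16 of Olfr1192-ps1 and the third 5 of Olfr1369-ps1. With pseudogenes counted among the receptor UMIs, male 1 would have 16 neurons in place of 18. At least 1 Olfr31 UMI was also found in 216 of the 17790 neurons of other receptors (1.21%, median depth 8190 UMIs), and in 88 of 5984 barcodes with high Cyp2g1 and under 5 Omp UMIs (1.47%, median depth 13591.5). Of barcode sequences, 895 occurred in more than 1 library, 5 of them among the Olfr31 neurons and none of these shared by a pair of Olfr31 neurons.

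The barcodes just outside the rule are given for comparison. Another receptor was on top in 12 barcodes that had 3 to 136 Olfr31 UMIs, at a median depth of 15203.5 UMIs. With Olfr31 on top and its share under 80%, 8 barcodes had 49.2% to 68.5% of receptor UMIs from Olfr31 and a median depth of 15892.5 UMIs, above the median of 6889 in the chosen neurons. None had Olfr31 on top with 1 or 2 UMIs and 80% or more of receptor UMIs. Cyp2g1 above 15 UMIs kept out 3 barcodes. Omp below 5 UMIs kept out 10 barcodes with 6 to 92 Olfr31 UMIs at a median depth of 1958. Summed over these 10, Gap43, a growth-cone protein of immature neurons, stood at 2076 UMIs per 1000000 (CPM) against 130 in the chosen neurons, though only 4 of the 10 had a Gap43 UMI.

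The chosen cells carried the markers of mature sensory neurons. Without Omp, which the rule used, the summed level of the mature markers was 23495, 25943, 25039 and 24665 CPM in female 1, female 2, male 1 and male 2, and 21214, 21063, 22607 and 21164 CPM in the neurons of other receptors, so it was slightly higher in the Olfr31 sums of every library. Of 9 mature markers tested 3 rose and 0 fell. Among the markers of other cell types none rose. Of 10 immature neuron markers 5 fell, of 9 precursor markers 2, of 9 sustentacular markers 4, of 8 respiratory markers 5 and of 8 immune markers 3. Of 6 horizontal basal and 6 microvillar markers 1 each fell, and of 7 ensheathing and 2 necklace markers 0. Over all 12901 genes tested 0.969% rose and 2.43% fell. In the comparison with receptors of equal weight, described below, no marker tested was called. The summed immature level was 1945, 1072, 1670 and 1231 CPM in female 1, female 2, male 1 and male 2. In the neurons of other receptors it was 1860, 1871, 1688 and 1912 CPM, so it was higher in the Olfr31 sum of female 1 only. The summed respiratory level was 1043 to 1593 CPM in Olfr31 neurons and 2304 to 3243 CPM in the others, and the summed sustentacular level, without Cyp2g1, 401 to 734 CPM against 749 to 1045 CPM. The respiratory secretory gene Bpifa1 had a median of 2 UMIs per cell in both populations, and in the others 79.5% of its UMIs lay in 1% of the barcodes. The immune markers were near 0 in Olfr31 neurons, at 0 to 16.8 CPM in sum with 7 genes of the list at 0, against 72.2 to 175 CPM in the other neurons.

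Olfr31 neurons had a lower median depth than the other neurons, so depth is set beside the results that follow. The median Olfr31 neuron had 6018, 6809, 8054.5 and 7210.5 UMIs in female 1, female 2, male 1 and male 2, against 8599, 8285, 8084 and 7771 in neurons of other receptors. The Olfr31 median was lower in 4 of 4 libraries, with a mean difference of -1162 UMIs (SD 1119), and an exact two-sided paired permutation test gave p = 0.125, the smallest that 4 pairs allow. In male 1 the medians were nearly equal. The median number of genes was 2843, 3146, 3323.5 and 3156 against 3468.5, 3377, 3303.5 and 3223, lower in 3 of 4 libraries (exact p = 0.25). Barcodes under 5000 UMIs made up 37.6% of the Olfr31 neurons, 38 of 101, and 19.5% of the others. By library this share was 43.3%, 42.4%, 27.8% and 30.0% against 18.1%, 19.6%, 20.4% and 20.1%. Shallow barcodes had a higher mitochondrial share, with medians of 4.40% below and 1.64% above 5000 UMIs in Olfr31 neurons and of 3.40% and 1.58% in the others. Calls of genes named below that were lost among barcodes of 5000 or more UMIs alone are given beside them.

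**Figure D1:**
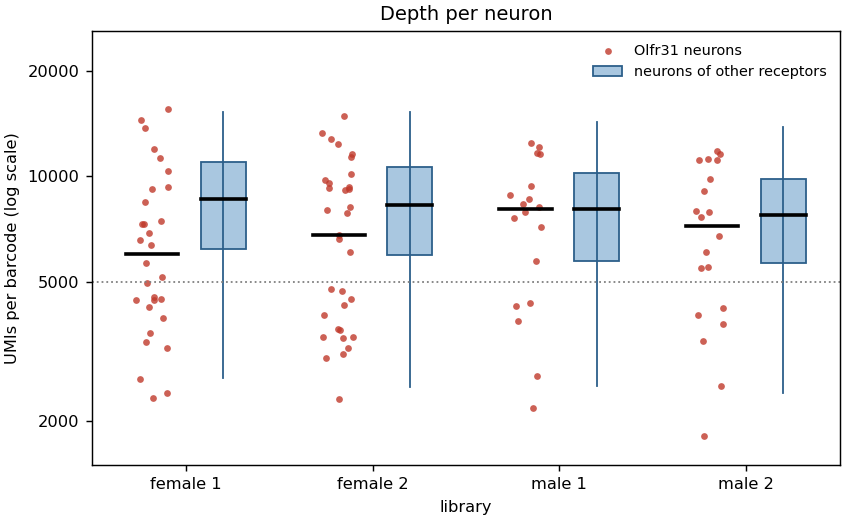
UMIs per barcode on a log axis for each library. Red points are single Olfr31 neurons with their median as a black bar, and blue boxes give the quartiles, median (black bar) and 5th to 95th percentiles of neurons of other receptors; the Olfr31 medians of 6018 to 8054.5 UMIs lie below the other medians of 7771 to 8599 in each library.

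Raw counts were summed in each library over the Olfr31 neurons and over the neurons of all other receptors, and the pairs of sums were compared with edgeR. Of 12901 genes tested, 438 passed an adjusted p of 0.05 (3.4%), with 125 higher (0.969%) and 313 lower (2.43%) in Olfr31 neurons, and 1615 had an unadjusted p under 0.05. The median log2 fold change over all genes tested was -0.10. When the scaling was that of DESeq2 size factors, 390 genes passed, of which 159 were higher and 231 lower, so the balance between the directions rested partly on the scaling. Leaving out female 1 left 282 genes and leaving out female 2 left 197. The other neurons are a mixture of receptors in which the frequent ones weigh most. A further comparison therefore set Olfr31 against the equal-weight mean of the 68 other receptors with at least 10 neurons in every library. It is called here the receptor-by-receptor comparison. The mean was taken over levels on the log scale, so receptors near 0 pull it down and it can lie well below the mean CPM. The p-values of this comparison measure the spread between libraries, not how far receptors differ from each other. In that comparison 154 of 6857 genes passed (2.25%), 113 higher (1.65%) and 41 lower (0.598%), with a median log2 fold change of 0.00. Both comparisons called 120 genes, 81 higher and 39 lower, and they share the Olfr31 sums. Where a rank is given below, it is the place of Olfr31 among the 69 receptors, rank 1 being the highest mean CPM.

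The dorsal-zone genes were almost absent from Olfr31 neurons. Nqo1, a quinone reductase of dorsal neurons (ENSMUSG00000003849, chromosome 8, 107388225 to 107403206, minus strand), had 4.86, 4.20, 0 and 0 CPM in females 1 and 2 and males 1 and 2, against 253, 234, 229 and 344 CPM in neurons of other receptors. That is 2 UMIs where 192 would be reached at the other neurons' level, a level 95.8 times lower with a 95% counting interval of 26.5 to 791 (edgeR adjusted p = 1.84e-73). Acsm4, an acyl-CoA synthetase of the same zone (ENSMUSG00000047026, chromosome 7, 119690026 to 119714565, plus strand), had 0 UMIs in all 4 Olfr31 sums and 68.5 to 102 CPM in the others, where 57.1 UMIs would be reached, so it was at least 19.0-fold lower at a floor of 3 counts over the group. Most receptors also had little of either gene: the median of the 68 other receptors was 5.99 CPM for Nqo1 and 3.72 for Acsm4, and Olfr31 ranked 61st and 63rd of 69. Ncam2, the adhesion molecule of ventral neurons (ENSMUSG00000022762, chromosome 16, 81200697 to 81626828, plus strand), was the reverse, with 287, 256, 263 and 294 CPM against 179, 179, 186 and 170, and the groups did not overlap. Its rise was 0.56 ± 0.12 on the log2 scale (SE, edgeR adjusted p = 0.000268), and 0.45 ± 0.14 in the receptor-by-receptor comparison (adjusted p = 0.0470). Of the 10 zone genes tested, Ncam2 and the transcription factors Nfib and Nfix rose, and Nqo1, Acsm4 and the glutathione transferase Gstm1 fell. Over all genes tested 0.969% rose and 2.43% fell. The list median was -0.68, or 0.30 when genes at 0 UMIs were set to the floor. Nfix (0.35 ± 0.11) was lost without female 1, female 2 or male 2 (edgeR adjusted p of 0.411, 0.141 and 0.236). In the receptor-by-receptor comparison 1 of 7 zone genes, Ncam2, was called, beside 2.25% of all genes tested there.

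Activity-linked genes were lower in Olfr31 neurons. Of 12 tested 0 rose and 10 fell, where 2.43% of all genes tested fell. The median log2 fold change was -1.28 beside -0.10 over all genes. Pcp4l1, a small protein related to the calmodulin regulator Pcp4 (ENSMUSG00000038370, chromosome 1, 171173262 to 171196268, minus strand), had 399, 223, 591 and 427 CPM in females 1 and 2 and males 1 and 2, against 2313, 2462, 2807 and 2604 CPM in the others. The groups were far apart, and the gene fell by 2.77 ± 0.09 on the log2 scale (SE, edgeR adjusted p = 1.16e-212). S100a5, a calcium-binding protein whose level follows odor stimulation (ENSMUSG00000001023, chromosome 3, 90608523 to 90611780, plus strand), had 4059, 4691, 9744 and 6322 CPM against 11782, 11120, 17242 and 13120. It had a UMI in 99.0% of the Olfr31 neurons and 98.3% of the others, and it fell by 1.23 ± 0.06 (edgeR adjusted p = 8.44e-85). These 2 genes also fell in the receptor-by-receptor comparison, Pcp4l1 by 2.08 ± 0.21 (adjusted p = 3.13e-15, rank 60) and S100a5 by 0.69 ± 0.19 (adjusted p = 0.0257, rank 52). No other activity-linked gene of the 11 tested there was called.

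The immediate-early genes made up most of the other falls on that list. Egr1, a zinc-finger transcription factor induced by activity, had 131, 181, 80.2 and 210 CPM against 369, 393, 340 and 450, and fell by 1.41 ± 0.13. Fos, the other textbook immediate-early gene, moved less, with 535, 458, 496 and 636 CPM against 758, 784, 670 and 816 and fell by 0.60 ± 0.09 (edgeR adjusted p = 1.23e-09). Nr4a1 fell by 2.25, Junb by 1.35, Btg2 by 1.06, Fosb by 0.83 and Ier2 by 0.37. Ier2 was not called among barcodes of 5000 or more UMIs (edgeR adjusted p = 0.329). Calb2, the calcium buffer calretinin, fell by 1.03 ± 0.11, but female 1 stood at 535 CPM, above its own other neurons at 527, and the remaining Olfr31 sums at 119 to 156 CPM lay below theirs at 441 to 494. Against receptors of equal weight Calb2 differed by -0.03 and Egr1 by -0.81 (edgeR adjusted p = 0.428).

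Among the further falls, Necab1, a neuronal calcium-binding protein, had 0, 16.8, 14.6 and 0 CPM against 79.9, 87.4, 81.1 and 91.4, and fell by 3.42 ± 0.38. Against receptors of equal weight it fell by 2.65 ± 0.48 (edgeR adjusted p = 1.91e-05, rank 63). The protocadherin Pcdh8 had 14.6, 0, 7.29 and 6.99 CPM against 89.3, 87.0, 112 and 96.3, and fell by 3.83 ± 0.38, and by 2.42 ± 0.69 against receptors of equal weight (edgeR adjusted p = 0.0328, rank 61). In both genes every Olfr31 sum lay far below every other sum. Pcdh7, another protocadherin, had 2 UMIs where 55.2 would be reached, 27.6 times fewer with a counting interval of 7.64 to 228, at rank 64. Ckb, the brain creatine kinase, is among the most abundant of these genes, and it had 2922, 3005, 2969 and 3874 CPM against 4701, 4887, 4755 and 5308. It fell by 0.70 ± 0.06, and by 0.60 ± 0.09 against receptors of equal weight (edgeR adjusted p = 2.22e-08, rank 56). Of the 15 largest falls, Pcdh8 and Necab1 were the ones called in the receptor-by-receptor comparison, Acsm4 was not tested there, and all 15 were called also among barcodes of 5000 or more UMIs.

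Several of the largest falls rested on few barcodes of the other neurons. Avp (vasopressin), Apoe (a lipid carrier), Hbb-bs (a beta globin), Cd74 (the invariant chain of MHC class II) and Ccn1 (a matrix protein) had 95.2%, 94.2%, 93.3%, 92.3% and 82.6% of their UMIs in the other neurons within 1% of the barcodes. Hbb-bs, for example, was found in 10.9% of Olfr31 neurons and 10.0% of the others, while its CPM was 13.99 to 21.02 against 114 to 216. Avp had 1 UMI where 55.2 would be reached, a ratio of 55.2 with a counting interval of 9.91 to 2181. The complement regulator Cd55 (17.8 ± 8.65 against 184 ± 22.2 CPM, SD, n = 4) and the fatty acid transporter Cd36 (6.19 ± 5.24 against 82.5 ± 9.13) were spread over more cells, and Olfr31 ranked 33rd of 69 for Cd55. The remaining genes among the 15 were the acyltransferase Mboat1 (1 UMI against 30.6 reached at the other level), the Ras exchange factor Rasgrp4 (2 UMIs against 25.3) and the G protein subunit Gnas, which fell by 2.83 ± 0.42 and stood at rank 68. The number of falls with 0 UMIs in Olfr31 neurons was 24 of 313.

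**Figure D2:**
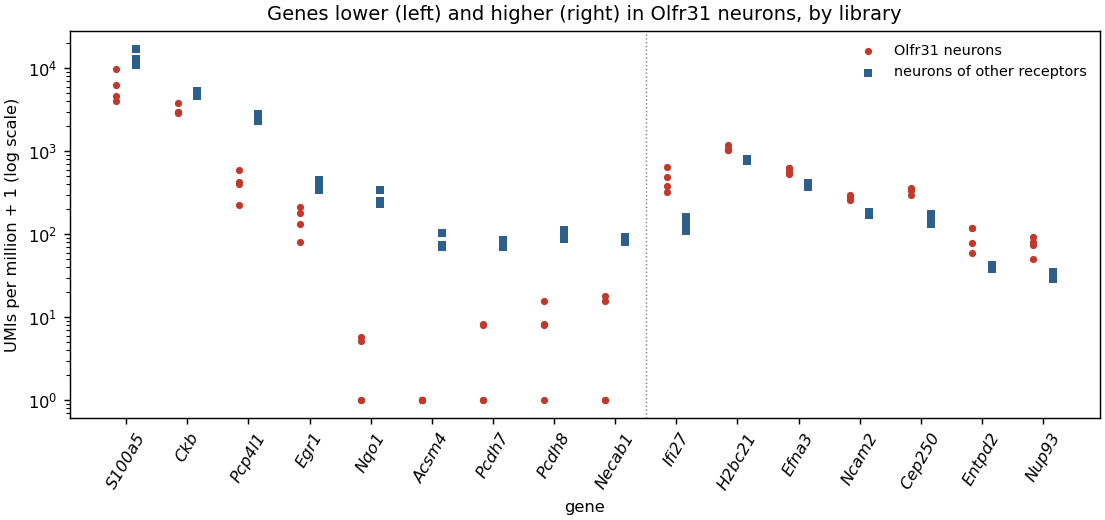
CPM plus 1 on a log axis for selected genes, with 1 red point per library for the Olfr31 neurons and 1 blue square per library for the neurons of other receptors. Genes left of the dotted line were lower and those right of it higher; for Pcp4l1 the red points at 223 to 591 CPM lie well below the blue squares at 2313 to 2807.

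Ifi27 had the lowest adjusted p of the genes that rose. It encodes an interferon-inducible mitochondrial protein (ENSMUSG00000064215, chromosome 12, 103434211 to 103440239, plus strand) and had 384, 483, 321 and 643 CPM in females 1 and 2 and males 1 and 2, against 125, 161, 109 and 132 CPM in neurons of other receptors. The groups were well apart, with a rise of 1.70 ± 0.11 on the log2 scale (SE, edgeR adjusted p = 1.74e-55). A UMI of Ifi27 was found in 68.3% of Olfr31 neurons and 34.8% of the others, and after thinning every cell to 2000 UMIs in 44.0% and 16.9%. Against receptors of equal weight the rise was 1.42 ± 0.20 (edgeR adjusted p = 4.61e-09), and Olfr31 ranked 2nd of 69. Cep250, a centrosome linker protein, had 345, 366, 343 and 294 CPM against 177, 155, 153 and 131, a rise of 1.07 ± 0.11 (edgeR adjusted p = 1.70e-18), also at rank 2. Entpd2, an ectonucleotidase that hydrolyses extracellular ATP (chromosome 2, 25395874 to 25401321, plus strand), had 77.8, 118, 58.3 and 119 CPM against 38.8, 39.2, 41.5 and 37.4. It rose by 1.22 ± 0.21, and by 2.43 ± 0.26 against receptors of equal weight (edgeR adjusted p = 2.08e-14), where it ranked 4th.

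Other genes among the 15 largest rises had lower levels. The nucleoporin Nup93 had 72.9, 92.5, 80.2 and 48.9 CPM against 33.7, 32.9, 34.0 and 27.6 (rise of 1.17 ± 0.24, rank 2). Sgsm2, a GTPase-activating protein of Rab proteins, had 43.7, 71.5, 58.3 and 83.9 CPM against 24.9, 26.7, 27.4 and 28.0 (rise of 1.19 ± 0.26), and Fam185a had 58.3, 79.9, 131 and 69.9 CPM against 39.3, 36.7, 37.7 and 34.9 (rise of 1.07 ± 0.23), both at rank 1 of 69. Lrrn2, a leucine-rich repeat membrane protein of neurons, rose by 1.13 ± 0.24, and by 1.75 ± 0.27 against receptors of equal weight. Ifit1, like Ifi27 an interferon-induced gene, rose by 1.05 ± 0.21 at rank 3, and Irf9, a transcription factor of interferon signalling, by 1.19 ± 0.35, although Irf9 overlapped between the groups with 34.0, 42.0, 14.6 and 55.9 CPM against 11.8 to 17.97. The others were the matrix proteins Spon2 (1.28 ± 0.35) and Sned1 (1.15 ± 0.28), dystrophin, Dmd (1.83 ± 0.38), the GATA cofactor Zfpm2 (1.53 ± 0.42), the receptor phosphatase Ptprz1 (1.32 ± 0.41) and Pdgfrl (1.20 ± 0.35). Of the 15 rises 11 passed the receptor-by-receptor comparison and 3 were not tested in it. Sned1 missed its threshold there, at an adjusted p of 0.0534 by edgeR. Single libraries decided 8 of the 15 calls. Without female 1 the edgeR adjusted p was 0.0641 for Dmd, 0.2504 for Sned1 and 0.2496 for Ifit1, and Spon2 was lost without female 2 (0.287) or male 1 (0.153). Ptprz1 was lost without any single library (0.0626 to 0.544), Pdgfrl without any but female 1 (0.120 to 0.303), and Zfpm2 and Irf9 without any but male 1 (0.0704 to 0.116 and 0.0682 to 0.284). The calls of Ifi27, Cep250, Entpd2, Nup93, Sgsm2, Lrrn2 and Fam185a were kept whichever library was left out.

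The rises are set against depth here. Of the 125 genes that rose, 106 (84.8%) also had higher CPM in other neurons below 5000 UMIs than in other neurons at or above it, against 57.2% of all genes tested and 24.6% of the 313 that fell. Their median genomic span was 64.9 kb, against 24.97 kb over all genes tested and 8.65 kb for the falls. Among barcodes of 5000 or more UMIs alone, 268 genes were called, and these included 62 of the 125 rises and 187 of the 313 falls. All 125 and all 313 kept their direction, as did 10992 of all 12901 genes tested. The deeper barcodes held 63 of the 101 Olfr31 neurons that gave the calls. A kept direction there is therefore not independent of the calls. Of the 15 largest rises, 10 were called among the deeper barcodes, and Dmd, Zfpm2, Ptprz1, Pdgfrl and Irf9 were not. Ifi27 was as far apart there as in all barcodes, at 1.84. With every cell thinned to 2000 UMIs, which discards most counts of a typical cell, Ifi27, Cep250 and Nup93 were the rises still called among the 15. Entpd2, and Ncam2, Efna3 and H2bc21, described elsewhere, were not called there (edgeR adjusted p = 0.104, 0.756, 0.212 and 0.469). The share of depth in the rises was not tested further.

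**Figure D3:**
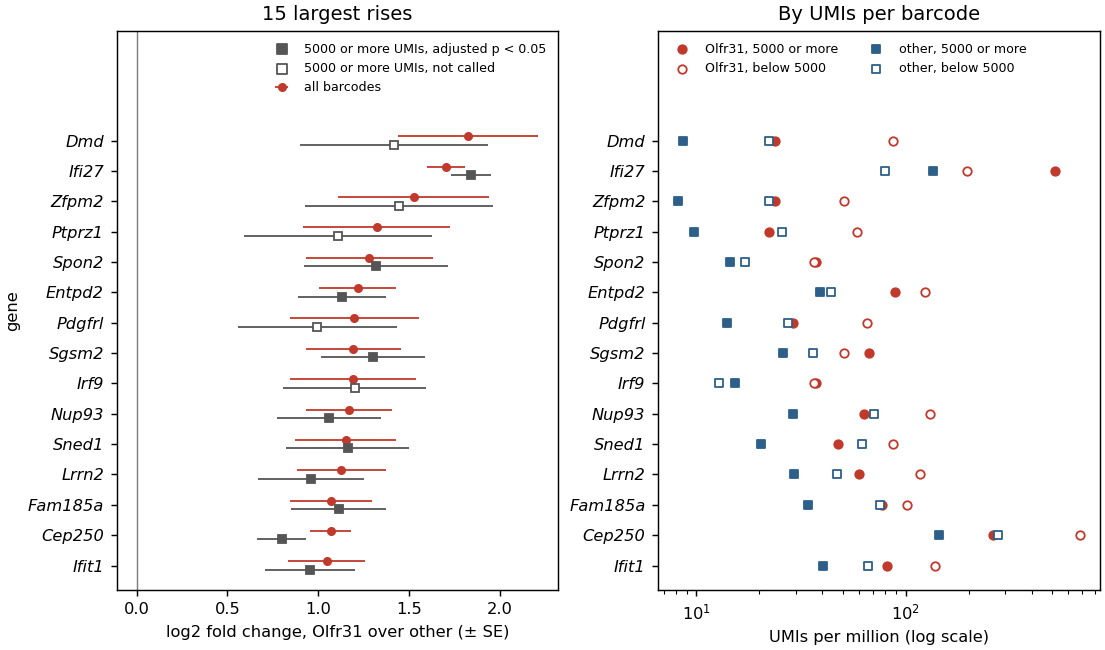
The 15 genes with the largest rises. The left panel gives the log2 fold change with its SE from all barcodes (red) and from barcodes of 5000 or more UMIs (filled squares where adjusted p was under 0.05, open where not), and the right panel gives CPM by depth class on a log axis; 10 of the 15 remained called among the deeper barcodes.

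Axon sorting molecules did not move in 1 direction. Of 29 tested 3 rose and 4 fell, beside 0.969% and 2.43% of all genes tested. The median was 0.12, or 0.14 with genes at 0 UMIs set to the floor. Efna3, a membrane-anchored ephrin that acts in axon guidance (ENSMUSG00000028039, chromosome 3, 89313899 to 89322965, minus strand), had 622, 534, 562 and 629 CPM in females 1 and 2 and males 1 and 2, against 402, 417, 369 and 389, without overlap. It rose by 0.50 ± 0.09 (edgeR adjusted p = 2.57e-06) and, against receptors of equal weight, by 0.83 ± 0.12 (adjusted p = 8.99e-09, rank 5). Pcdh10, a protocadherin, had 82.6, 168, 233 and 329 CPM against 99.5, 90.8, 122 and 99.6, so female 1 lay below its other neurons. Its rise of 0.84 ± 0.14 had an adjusted p of 0.0573 by edgeR without male 2. The adhesion molecule Cntn4 rose by 0.23 ± 0.07, a call lost without female 1, female 2 or male 1 (edgeR adjusted p of 0.511, 0.106 and 0.139) and among barcodes of 5000 or more UMIs (0.845). The 4 that fell were the semaphorin receptor Nrp1, Pcdh7 and the teneurins Tenm2 and Tenm4. Kirrel2, the homophilic adhesion molecule tied to receptor activity, had 1084, 866, 1284 and 923 CPM against 1158, 1045, 1082 and 859, and the difference of -0.08 ± 0.07 missed the threshold (edgeR adjusted p = 0.713). Kirrel3, its complementary partner in glomerular sorting, had 102, 143, 117 and 133 CPM against 98.2, 97.0, 89.3 and 95.8 (0.32 ± 0.17, adjusted p = 0.430 by edgeR). Against receptors of equal weight 7 of 25 rose and 0 fell, beside 1.65% and 0.598% of all genes tested there, with a median of 0.28. The 7 were Kirrel3 (1.49 ± 0.20), the Slit receptor Robo2 (1.66 ± 0.24), Plxna1, Efna3, Pcdh10, Pcdh9 and Cntn4.

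Among the neurexins, presynaptic adhesion molecules, and their partners, Nrxn2 had 18 UMIs against 13.6 at the other neurons' level and was not called, and Nrxn3 had 0 UMIs. Clstn2, a calsyntenin that binds neurexins, had 758, 773, 773 and 755 CPM in Olfr31 neurons and 627, 641, 627 and 648 CPM in the others, higher in 4 of 4 libraries with no overlap. The difference of 0.20 ± 0.08 missed the threshold (edgeR adjusted p = 0.171), and against receptors of equal weight it was called, at 0.28 ± 0.08 (edgeR adjusted p = 0.0469).

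Transduction genes moved by small amounts. Of 22 tested 5 rose and 0 fell, beside 0.969% and 2.43% of all genes tested, with a median of -0.02. Their summed level was 53063, 56997, 55673 and 56758 CPM in females 1 and 2 and males 1 and 2. In the neurons of other receptors it was 50814, 51018, 52533 and 51257 CPM, lower in every library. Adcy3, the adenylyl cyclase of the cascade, had 1925, 2156, 1736 and 2070 CPM against 1538, 1520, 1566 and 1551, a rise of 0.29 ± 0.06 (edgeR adjusted p = 0.000546) that was not called among barcodes of 5000 or more UMIs (adjusted p = 0.143) or without female 2 (adjusted p = 0.125). The channel subunits Cnga2 and Cngb1 and the membrane organiser Stoml3 also rose, of which Cngb1 was not called among the deeper barcodes (edgeR adjusted p = 0.205). Reep1, a receptor-expression-enhancing protein, had 233, 214, 197 and 210 CPM against 144, 140, 145 and 136, at rank 2 of 69, and was the 1 gene of this list called against receptors of equal weight (0.58 ± 0.16, edgeR adjusted p = 0.0193). Its rise of 0.54 ± 0.13 was not called among the deeper barcodes (adjusted p = 0.364) or without female 1 (adjusted p = 0.0539).

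Release, channel and receptor-choice genes gave few calls, where 0.969% of all genes tested rose and 2.43% fell. Of 15 synaptic release genes tested Rims1, an active-zone scaffold, rose (53.5, 71.5, 65.6 and 35.0 CPM against 31.7, 28.9, 32.4 and 26.5). Its rise of 0.89 ± 0.26 was lost without female 1, female 2 or male 1 (edgeR adjusted p of 0.0597, 0.495 and 0.0862) and among barcodes of 5000 or more UMIs (0.179). Of 16 ion channel genes Cacnb2, a calcium channel subunit, rose by 0.88 ± 0.17 and Kcnmb3, a potassium channel subunit, fell, with a median of 0.25. Kcnmb3 was not called among the deeper barcodes (edgeR adjusted p = 0.197). Cacnb2 had 141, 147 and 219 CPM in females 1 and 2 and male 1 against 72.9 to 77.6, but in male 2 it had 69.9 against 71.2, and it was not called among the deeper barcodes (edgeR adjusted p = 0.0755). Olfr31 nevertheless ranked 1st of 69 for both Rims1 and Cacnb2. Of 17 genes of receptor choice and the unfolded protein response 1 fell, Ddit3, with a median of -0.07.

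Maturation genes were lower in part. Of 14 tested 0 rose and 7 fell (Gng8, Stmn2, Stmn3, Dpysl3, Marcksl1, Gnas and Hdac2), with a median of -0.51. Over all genes tested 0.969% rose and 2.43% fell. Stmn3 and Hdac2 were not called among barcodes of 5000 or more UMIs (edgeR adjusted p = 0.174 and 0.0840). Stmn2, a microtubule regulator of growing axons, had 418, 256, 365 and 280 CPM against 515, 540, 504 and 550, did not overlap and fell by 0.75 ± 0.10 (edgeR adjusted p = 1.85e-11). Gng8, the G protein subunit of immature neurons, had 77.8 CPM in female 1 and 0 in the other libraries, against 48.9 to 60.1 CPM. None of the maturation genes was called against receptors of equal weight. A list of 10 genes marked earlier as differing between receptors was, like the other lists, chosen with earlier results of these data known. Of these, H2bc21, a histone H2B gene, rose with 1045, 1202, 1043 and 1063 CPM against 800, 791, 780 and 765. Its rise was 0.41 ± 0.07 (edgeR adjusted p = 2.13e-06) and 0.96 ± 0.09 against receptors of equal weight (adjusted p = 6.55e-17). The mean of 1088 CPM in Olfr31 neurons lay above that of most receptors, but several stood higher, up to 1535 CPM in Olfr728 neurons. Of the 10 genes 5 fell, namely Cd55, Avp, Ckb, Pde7b and Cartpt. Cartpt, a neuropeptide gene, fell by 2.40 ± 0.13 in the pooled comparison and differed by 0.13 ± 0.39 against receptors of equal weight.

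**Figure D4:**
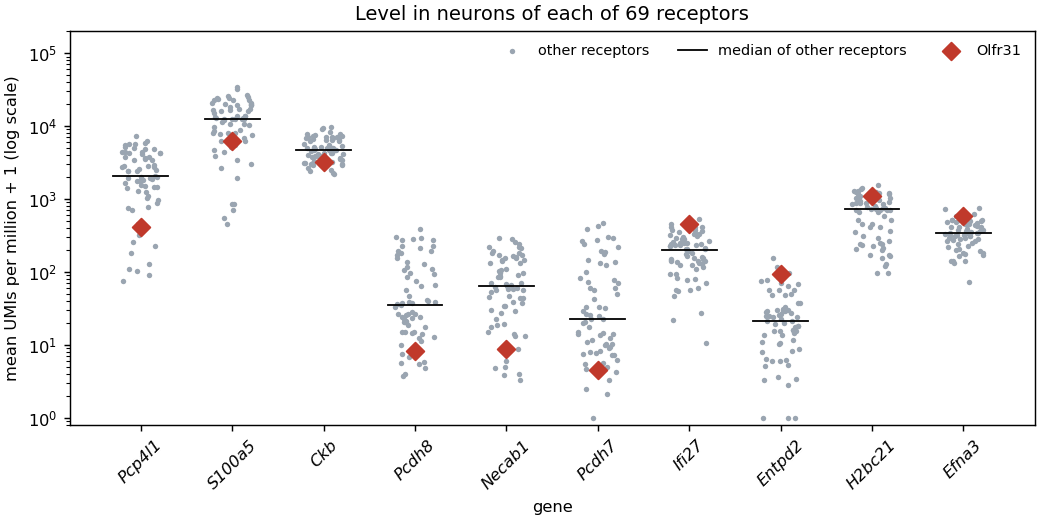
Mean CPM plus 1 over the 4 libraries on a log axis, with 1 grey point for each of 68 receptors, a black bar at their median and a red diamond for Olfr31. Olfr31 lies near the top for Ifi27 (rank 2) and near the bottom for Pcp4l1 (rank 60) and Necab1 (rank 63).

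The receptors whose neurons were most like Olfr31 neurons were found by Pearson's r of log2 CPM deviations from the mean over the 69 receptors, across 2594 genes that are not independent, and every receptor's values come from the same libraries. The highest were Olfr330 with r = 0.40 on chromosome 11, Olfr728 with r = 0.33 on chromosome 14 and Olfr169 with r = 0.24 on chromosome 16. By coding sequence they stood 4th, 229th and 13th among the 1102 receptors compared with Olfr31, at 64.5%, 56.9% and 62.4% identity. Olfr330 and Olfr728 neurons also had little Pcp4l1, at 126 ± 60.3 and 108 ± 48.9 CPM (SD, n = 4) beside 410 ± 151 in Olfr31 neurons, and little Necab1, at 7.88 ± 9.30 and 3.78 ± 3.16 beside 7.85 ± 9.11. Olfr169 did not share these levels, with 2084 ± 178 CPM of Pcp4l1 and 97.2 ± 15.7 of Necab1. Ckb stood at 2305 ± 177, 2232 ± 136 and 5146 ± 646 CPM in Olfr330, Olfr728 and Olfr169 neurons, and at 3192 ± 456 in Olfr31 neurons. Not every level was alike. In Olfr330, Olfr728 and Olfr31 neurons the mean of Calb2 was 1018, 2095 and 239 CPM. In the same order Pcdh8 was 19.5, 273 and 7.22 CPM, Kirrel3 5.69, 127 and 124, and S100a5 5198, 848 and 6204. The receptors were picked by r in the same sums. A shared level in a single gene is therefore not independent of that choice.

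The neurons of Olfr720, the neighbour and closest relative in sequence, had other levels. Pcp4l1 stood at 4326 ± 266 CPM (SD, n = 4) in Olfr720 neurons and 410 ± 151 in Olfr31 neurons, and S100a5 at 26086 ± 4291 and 6204 ± 2545, with no overlap between libraries in either gene. Kirrel2 was 1854 ± 338 CPM in Olfr720 and 1039 ± 187 in Olfr31 neurons, while Efna3 was lower in Olfr720, at 205 ± 61.0 against 587 ± 46.6. Ifi27 was similar in level, at 381 ± 105 and 458 ± 141 CPM, with overlapping libraries. These values are a description, and the pair was not tested.

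Olfr31 neurons made up 0.662%, 0.764%, 0.405% and 0.435% of the assigned neurons in female 1, female 2, male 1 and male 2. The exact 95% binomial intervals, which cover counting error only, were 0.447% to 0.944%, 0.527% to 1.07%, 0.240% to 0.640% and 0.266% to 0.671%, so those of the sexes overlap. The mean share was 0.713% ± 0.0723 in females and 0.420% ± 0.0207 in males (SD, n = 2 each), and an exact permutation test gave p = 0.333, the smallest that 2 against 2 allows. A model of neuron numbers over 260 receptors in edgeR gave a male over female log2 difference of -0.76 ± 0.25 that did not pass (adjusted p = 0.457). None of the 260 receptors passed, and 21 had an unadjusted p under 0.05. Among barcodes of 5000 or more UMIs the difference was -0.42 (edgeR adjusted p = 0.83).

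Male and female Olfr31 neurons differed in few genes. Of 4067 tested 4 passed (0.0984%), all with more in the male sums, while 228 reached an unadjusted p under 0.05. Eif2s3y, a Y-linked translation factor gene, had 0 UMIs in both female sums and 17 and 13 in the male sums, which fits the labels. S100a5, at the levels given above, was higher in males by 0.90 ± 0.15 on the log2 scale (edgeR adjusted p = 0.00536). The neurons of other receptors also had more S100a5 in the male libraries, and the sex difference in Olfr31 neurons was not shown to differ from theirs (interaction adjusted p = 0.324 by edgeR). Gng13, a G protein subunit of the transduction cascade, had 3160 and 3812 CPM in females and 5959 and 4986 CPM in males, a difference of 0.67 ± 0.14 (edgeR adjusted p = 0.0419). It was also higher in the male libraries among neurons of other receptors, with 3675 and 3948 CPM in females and 5329 and 4526 CPM in males. Its interaction was not called. S100a5 was not called without male 1 (edgeR adjusted p = 0.547), and Gng13 not without female 1 or male 1 (0.173 and 0.603). Among barcodes of 5000 or more UMIs Eif2s3y was the 1 gene called, with S100a5 at an adjusted p of 0.149.

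Sema7a, a membrane-anchored semaphorin of sensory axons, was the 1 gene of 12901 whose sex difference in Olfr31 neurons passed the test against that in the other neurons (0.00775%). It had 457 and 383 CPM in the female and 802 and 762 CPM in the male Olfr31 neurons, while the other neurons stood at 489, 438, 465 and 459 CPM. Male sums of Olfr31 neurons thus lay above all other sums. The difference within Olfr31 neurons was 0.93 ± 0.18 (edgeR adjusted p = 0.0202) and the interaction 0.88 ± 0.17 (edgeR adjusted p = 0.00536), with 493 genes at an unadjusted p under 0.05. With any single library left out no gene passed the interaction test (edgeR adjusted p of 0.274 to 1 for Sema7a), and the difference within Olfr31 neurons was lost without female 2 or male 1 (0.162 and 0.0642). Among barcodes of 5000 or more UMIs the Sema7a interaction was 0.80 with an adjusted p of 0.118 by edgeR.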

How the data were processed

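The deposited files give unnormalized UMI counts, gene by barcode, for 4 libraries. They were made with Cell Ranger 6.0.2 per the file headers and Cell Ranger 5.0.1 with mm10 per the submitters' processing notes. The annotation, the strand setting and the rule by which barcodes were called are not given in the sources used here. The libraries held 100725429 to 111577458 UMIs in 10256 to 10777 barcodes.

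Gene positions and coding sequences came from GENCODE M21 (GRCm38, the assembly that mm10 names). Coding sequences were aligned with biopython 1.88. Counts of 21247 of 22399 features were eligible, leaving out receptors, mitochondrial genes, Omp and Cyp2g1. After the filter on low counts 12901 were tested in the main comparison. Counts were summed per library over Olfr31 neurons and over neurons of other receptors, giving 8 sums, and compared in edgeR 4.0.16 (R 4.3.3) with a quasi-likelihood test, TMM scaling, filterByExpr, the library as a block and Benjamini-Hochberg adjustment at 0.05. Both sums of a library come from the same tissue, and their deviations from the group means correlated at r = 0.356, 0.219, 0.269 and 0.246. The sexes were compared in the Olfr31 sums, and as an interaction over the 8 sums. CPM is a count per 1000000 of all counted UMIs in a sum. The floor for a sum with a count of 0 is 3 counts, and intervals and floors cover counting error only.

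The members and gene lists were chosen with earlier results of these data known. Named genes are the 15 largest rises (at least 20 UMIs) and 15 largest falls (at least 20 UMIs expected) among calls that moved the same way in 4 of 4 libraries, the sex calls, and members of fixed lists. Some members of the lists are not reported here. Of the 438 calls, 113 of 125 rises and 284 of 313 falls moved the same way in 4 of 4 libraries. On simulated counts for the 12901 genes the main test recovered 100% of rises of 2-fold and 82% of falls to 0.5 of the level. False calls made up 6.37% of the calls. The changes were set in 50 genes for each fold, all with more UMIs expected in the Olfr31 sums than the naming limit of 20. Recovery in genes with fewer UMIs was not tested, and no differences between libraries other than total counts were simulated. No doublet caller was run. A limit of 20000 UMIs per barcode was tried in its place. Exact tests used scipy 1.17.1 and numpy 2.4.6 in Python 3.11.15, and DESeq2 1.42.0 was an alternative to edgeR, run on the same counts. The Olfr31 sums of different libraries differed by more than sampling noise (chi-square per gene 1.38 to 1.85), so no library was counted as a repeat.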

Additional observations from a re-analysis of the deposited data

Results flagged for a closer look

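Of 59 values tested for a library far from the other 3, 9 were picked out, where chance picks about 1 in 20. The median Omp count per Olfr31 neuron was 36 UMIs in female 1 and 69, 65.5 and 64.5 in female 2, male 1 and male 2, and female 1 also had the lowest median depth. Calb2 stood at 535 CPM in the Olfr31 neurons of female 1, against 119 to 156 in the other libraries. Cartpt stood at 53.5 CPM in female 1, against 140 to 147. Ckb stood at 3874 CPM in male 2, against 2922 to 3005, and H2bc21 at 1202 CPM in female 2, against 1043 to 1063. Hbb-bs stood at 21.02 CPM in female 2, against 13.99 to 14.6. Avp (4.86 CPM in female 1), Mboat1 (6.99 in male 2) and Rasgrp4 (14.6 in male 1) were each picked out because the other 3 libraries had 0 UMIs, and each value rests on 1 or 2 UMIs.

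The male over female difference of Sema7a in Olfr31 neurons exceeded that in the other neurons by 0.88 on the log2 scale, by edgeR's test of the interaction. The call was lost with any single library left out and among barcodes of 5000 or more UMIs.

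Outside the comparison, 10 barcodes had Olfr31 as their dominant receptor with Omp under 5 UMIs. Stmn2 was summed at 2660 CPM in them against 327 in the Olfr31 neurons, Gng8 at 787 against 22.1, and 5 and 4 of the 10 barcodes had a UMI of these genes.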

How the results depend on the processing

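The 438 genes that differed from other receptors became 150 with DESeq2, all among the 438, and 199 without the library as a block. They became 268 (249 shared) among barcodes of 5000 or more UMIs and 177 (123 shared) with cells thinned to 2000 UMIs. At 20 or more Omp UMIs 286 (280 shared) were called, and 154 (120 shared) with each receptor weighing the same. With 1 library left out 197 to 343 were called. The 5 further settings gave 323 to 421 genes. Of the 30 genes named by size, 22 were called in the same direction with every library left out in turn, and 13 under every alternative but equal weights. The direction turned for Hbb-bs (0.24) and Cartpt (0.13) with equal weights, for Kirrel2 without female 2 (0.019, with -0.164 to 0.019 over the left-out libraries), and with thinned cells for Kirrel3 (-0.38), Nfix (-0.039) and Robo2 (-0.15). None of these 6 values passed the test.

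The 4 genes that differed by sex became 10 with a replicate block over the replicate numbers, 1 with DESeq2, 9 with no filter on low counts and 1 among barcodes of 5000 or more UMIs, a setting added after the data were seen, as were that setting for the interaction and the limit of 20 expected UMIs. With 1 library left out there were 7 to 9 calls, and without male 1 none of the 4 was among them. The replicate numbers pair nothing that the labels name, and the deviations of same-numbered libraries correlated at r = 0.0995. The interaction called 2 genes with DESeq2 size factors, 0 with DESeq2 and 0 to 0 with 1 library left out, and among barcodes of 5000 or more UMIs 1 gene other than Sema7a. For neuron numbers the direction did not change, with an adjusted p of 0.509 under a replicate block and log2 differences of -0.86 to -0.65 with 1 library left out. Genes per cell differed by 17.6 (exact p = 0.875) among barcodes of 5000 or more UMIs, where the pooled difference was -226. The causes were not tested. With 101 neurons, genes with few UMIs have wide intervals, and the absence of a call there is not a sign of equal levels.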
